A study of Mus musculus with 6 samples.

Results

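The interleukin-1 and interleukin-18 axis was described through 9 of the 57010 genes in the count table. The 9 genes were taken by symbol from a list of ligands, antagonists and receptors. The rule uses no measured value, but the list was drawn up with earlier results of these data known. They encode the ligands interleukin-1α (Il1a), interleukin-1β (Il1b) and interleukin-18 (Il18), the soluble antagonists Il1rn and Il18bp, the receptor chains Il1r1, Il1rap and Il18rap, and the decoy receptor Il1r2. RNA was sequenced from immune cells of mouse hearts, sorted as positive for CD45 and negative for CD90.2, in 6 libraries. All mice carried the genotype labelled Ova DTG, in which ovalbumin expression is restricted to the heart, and all had received naive ovalbumin-specific CD8 T cells (OTI). The 3 libraries labelled ICI (treatment OTI + ICI) came from mice also given the checkpoint antibodies anti-CTLA-4 (200 µg, clone 9D9) and anti-PD-1 (200 µg, clone RPM1-14). The 3 libraries labelled isotype (treatment OTI + Isotype) came from mice given control antibody, whose dose the labels do not state. The labels give no age, strain or sampling time, and do not say whether a library holds 1 animal or a pool, so the p-values measure the spread between these libraries. Sample titles of both groups name myocarditis, and directions below rest on the labels.

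Interleukin-1α and interleukin-1β both act through the receptor Il1r1, which signals only after it recruits the accessory chain Il1rap. Il1rn occupies that receptor without recruiting the accessory chain, and Il1r2 binds the ligands but lacks a signalling domain. Interleukin-18 acts through the binding chain Il18r1 with the accessory chain Il18rap, and Il18bp binds free interleukin-18. The precursors of interleukin-1β and interleukin-18 are cleaved by caspase-1 before they act, whereas the precursor of interleukin-1α is already active. These cytokines are studied in the inflamed heart as products of macrophages, monocytes and neutrophils.

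Of the 9 genes, 5 were lower and 2 were higher in the libraries labelled ICI, which is 77.8% called at an adjusted p under 0.05 against 68.9% of all tested genes (35% higher, 33.9% lower). The lower calls of Il1b and Il1r2 were lost when libraries were scaled by totals or upper-quartile factors. Of 17 other settings, the Il1b call was lost in 8, among them fits with 1 library left out, and the Il1r2 call in 2. The antagonist Il18bp fell most, 13.8-fold, and Il1a and Il1rn fell 2.84-fold and 2.79-fold. The receptor chains Il1r1 and Il1rap rose 4.25-fold and 1.65-fold. Il18 and Il18rap were not called.

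Total counts ran from 21528274 to 30736316 per library. Levels are given as CPM (counts relative to the library's size) scaled by TMM factors, which put the libraries on a common scale through the bulk of genes. Ptprc, which encodes CD45, lay between 1028 and 1341 CPM, and Thy1, which encodes CD90, had 0 to 2 counts per library, as the gate asks. The female transcript Xist had 2786 counts in ICI replicate 3 and 1844 in isotype replicate 3, and 0 to 12 in the other 4 libraries, so tests were also run on replicates 1 and 2 alone. Markers of myeloid cells separated the groups. All 9 resident macrophage markers were higher in the libraries labelled ICI, with a summed level of 8306 to 9594 CPM against 274 to 352 CPM. Of 9 monocyte markers 5 were lower and 2 higher, with 1631 to 1828 CPM against 4857 to 10001 CPM. Chil3 alone held 102 to 108 CPM of that sum against 4312, 6425 and 2032 CPM. The 2 monocyte markers that rose were Ace (3.42-fold) and Nr4a1 (1.46-fold). No marker of either list was at 0 in every library of a group. These sums separated the same groups as the members below, and their part in the members' differences was not tested. In bulk RNA, fewer cells of a type and less RNA per cell cannot be told apart.

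The start of 3 of the genes is shown first, because Il1a and Il1b are the ligands that share a receptor and fell by different amounts, and Il18bp fell most. Each sequence is the RefSeq window (GRCm38.p6) from 250 bases before to 50 bases after the transcription start, on the gene's own strand. All 9 genes had an entry, with 12 windows between them. Capitals mark matches to 6 short motifs searched on both strands.
Il1a (chr2:129309923-129310222, minus strand): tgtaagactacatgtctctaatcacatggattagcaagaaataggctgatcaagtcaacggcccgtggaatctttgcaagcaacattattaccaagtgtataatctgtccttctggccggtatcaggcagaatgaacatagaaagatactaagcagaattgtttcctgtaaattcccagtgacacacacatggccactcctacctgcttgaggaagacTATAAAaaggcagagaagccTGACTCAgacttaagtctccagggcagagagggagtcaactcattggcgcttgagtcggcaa
Il1b (chr2:129371090-129371389, minus strand): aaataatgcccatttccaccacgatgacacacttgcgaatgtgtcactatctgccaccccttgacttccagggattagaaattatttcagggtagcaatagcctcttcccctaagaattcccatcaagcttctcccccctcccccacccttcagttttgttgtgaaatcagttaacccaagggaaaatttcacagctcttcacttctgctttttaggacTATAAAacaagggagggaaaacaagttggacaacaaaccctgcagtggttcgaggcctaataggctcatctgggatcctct
Il18bp (chr7:102018183-102018482, minus strand): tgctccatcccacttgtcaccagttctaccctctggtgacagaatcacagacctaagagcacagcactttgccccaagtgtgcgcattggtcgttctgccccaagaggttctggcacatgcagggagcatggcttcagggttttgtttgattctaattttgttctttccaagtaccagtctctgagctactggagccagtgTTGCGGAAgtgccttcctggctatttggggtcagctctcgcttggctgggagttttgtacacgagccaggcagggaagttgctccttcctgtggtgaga
The capitals in both ligand genes are a TATA box (TATAAA), which begins 32 bases before the start in Il1a and 31 bases before it in Il1b. Il1a also holds an AP-1 site (TGANTCA) 12 bases before the start. The capitals in Il18bp are a C/EBP site (TTGCNNAA) 49 bases before the start. Of 32851 mouse windows of the same length, 13.6% hold the TATA box, 7.81% the AP-1 site and 10.8% the C/EBP site, so each match is a description only. The other motifs were the gamma-activated site TTCNNNGAA (8.3% of windows), the interferon regulatory factor core AAANNGAAA (10.6%) and the NF-kB site GGANTTTCC (1.25%). None of these 3 has a match in the windows shown. For these 3 motifs, among the other members, Il1r2 matches the gamma-activated site and Il18rap the NF-kB site. Il1rap and 2 of the 3 windows of Il1rn match the interferon regulatory factor core. Those 2 windows of Il1rn overlap, and the match is the same site in both.

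The comparison of libraries labelled ICI with libraries labelled isotype used edgeR's quasi-likelihood test, with p-values adjusted by the Benjamini-Hochberg method over 14575 tested genes. All 9 members passed the filter on low counts. Genes with an adjusted p under 0.05 are referred to as called. The groups did not overlap in CPM for 6 members (66.7%), against 73.8% of tested genes. This share and the share of members called are near those of all genes, so neither sets the axis apart. Il18bp was 1 of the 406 genes (2.79% of those tested) that were called and at least 4-fold lower. The median log2 fold change of the members was -0.38, against 0.03 over all tested genes. Scaling by library totals alone moved the median of all genes up by 0.20, and upper-quartile factors moved it up by 0.18. The share of called genes that were higher then went from 50.8% to 62.7% and 61.5%, and the members called lower went from 5 to 3.

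**Figure D1:**
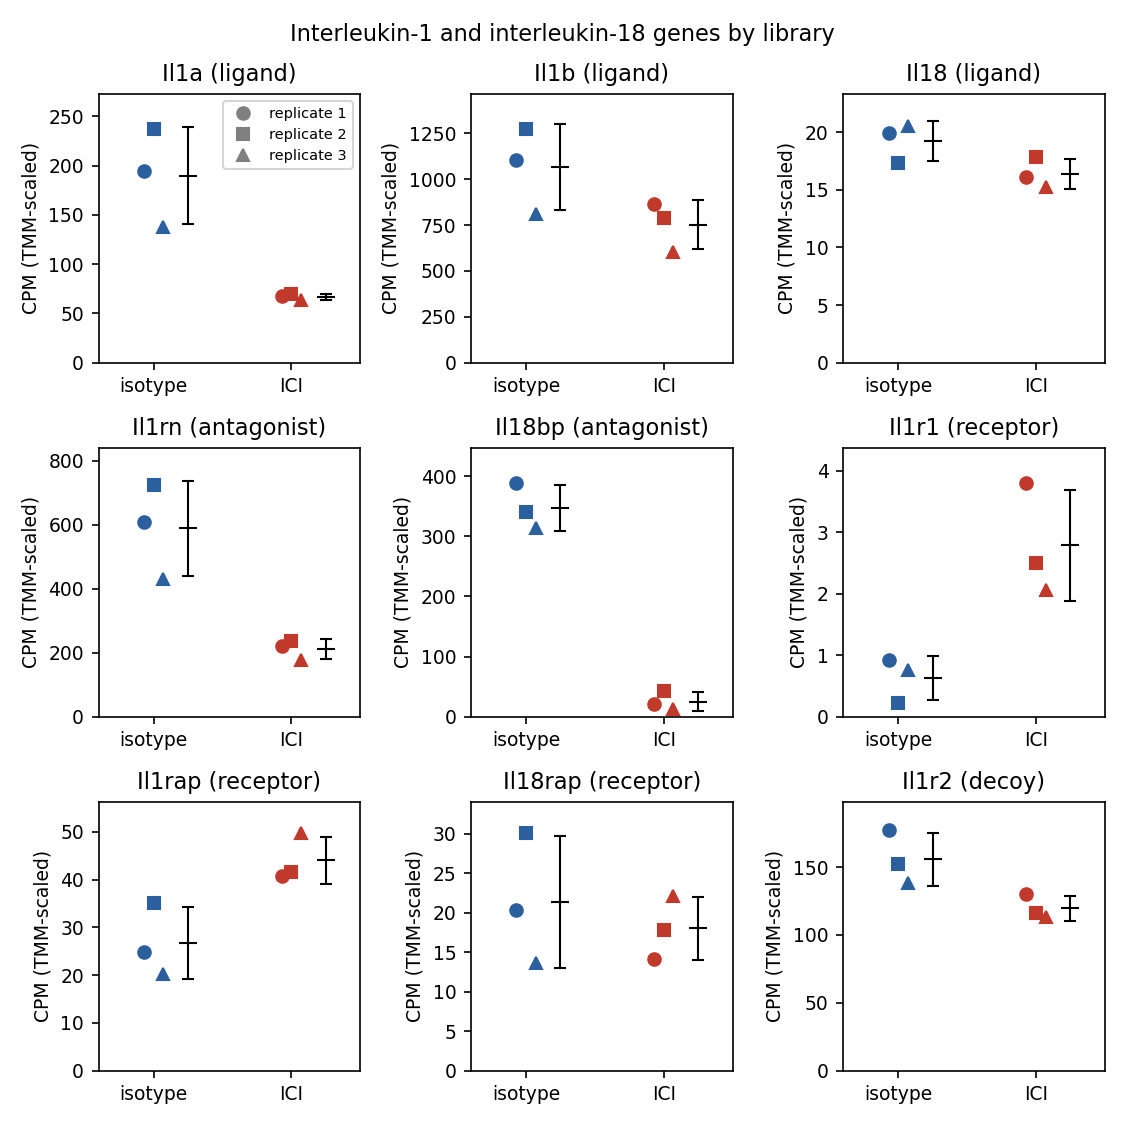
TMM-scaled CPM of the 9 genes in each library, on linear axes from 0, with symbols for replicates 1 to 3 and black bars for the mean and SD (n = 3). Il1a, Il1rn, Il18bp and Il1r2 are lower in all 3 libraries labelled ICI, Il1r1 and Il1rap are higher in all 3, and Il1b, Il18 and Il18rap overlap.

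Among the ligands, Il1a (ENSMUSG00000027399) stood at 67.4, 69.4 and 63.9 CPM in ICI replicates 1 to 3 and at 195, 237 and 138 CPM in isotype replicates 1 to 3. Every library labelled ICI was below every library labelled isotype, and the spread was narrower in the ICI group (66.9 ± 2.78 CPM against 190 ± 49.7 CPM, SD, n = 3 each). The log2 fold change was -1.51 (SE 0.18, edgeR adjusted p = 0.00016).

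Il1b (ENSMUSG00000027398), the ligand with the most RNA, stood at 866, 786 and 605 CPM in the libraries labelled ICI and at 1106, 1276 and 813 CPM in those labelled isotype. The groups overlapped, because ICI replicate 1 lay above isotype replicate 3. Its mean was 752 ± 134 CPM against 1065 ± 234 CPM (SD, n = 3 each), a log2 difference of -0.50 (SE 0.19, edgeR adjusted p = 0.043). This call was close to the threshold and was lost, at edgeR adjusted p = 0.0914 to 0.131, without ICI replicate 2, ICI replicate 3, isotype replicate 1 or isotype replicate 2. It was also lost with library totals (0.147) and upper-quartile factors (0.156), with no filter on low counts (0.139) and with a strict one (0.0801). Il1a made up 6.99%, 7.86% and 9.26% of the Il1a and Il1b counts per kilobase in the libraries labelled ICI, against 14.6%, 15.2% and 14.1% in the isotype group. Il1b was thus the larger part of this ligand RNA in all 6 libraries, and the Il1a share was lower in every library labelled ICI.

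Il18 (ENSMUSG00000039217) stood at 16.1, 17.8 and 15.2 CPM in the libraries labelled ICI and at 19.9, 17.3 and 20.5 CPM in those labelled isotype. ICI replicate 2 lay above isotype replicate 2, so the groups overlapped. The log2 difference of -0.23 (SE 0.12) was not called (edgeR adjusted p = 0.0995), which does not show that the groups were alike. Il18 overlaps Bco2 on the opposite strand, which had 112 to 521 counts per library beside 360 to 599 for Il18, so reads of the pair are uncertain. The genes that overlap Il1a and Il1b (Gm14023 and Il1bos) had at most 86 and 56 counts.

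Of the antagonists, Il18bp (ENSMUSG00000070427) stood at 20.6, 42.2 and 12.6 CPM in the libraries labelled ICI and at 388, 340 and 313 CPM in those labelled isotype. The gap between the groups was several times the highest value of the ICI group, in which replicate 2 was highest. Il18bp had a log2 difference of -3.78 (SE 0.49, edgeR adjusted p = 0.0015), from 347 ± 37.8 CPM to 25.1 ± 15.3 CPM (SD, n = 3 each). Without ICI replicate 2 the fall was 20.8-fold. Il18bp overlaps Numa1 on the opposite strand, and the libraries carry no strand. Numa1 had 2183 to 3565 counts per library, whereas Il18bp had 300 to 10567.

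Il1rn (ENSMUSG00000026981) stood at 220, 236 and 177 CPM in the libraries labelled ICI and at 610, 726 and 431 CPM in those labelled isotype. All 3 libraries labelled ICI were lower than any labelled isotype, and they lay closer together. The mean went from 589 ± 148 CPM to 211 ± 30.1 CPM (SD, n = 3 each), a log2 difference of -1.48 (SE 0.20, edgeR adjusted p = 0.000334). Il1a and Il1rn, an agonist and the antagonist of the same receptor, thus fell by nearly the same factor.

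The receptor chain Il1r1 (ENSMUSG00000026072), which carries the interleukin-1 signal, was scarce in both groups. It had 91, 63 and 49 counts in the libraries labelled ICI, against 25, 5 and 22 counts in the isotype group, which is 3.8, 2.5 and 2.06 CPM against 0.917, 0.22 and 0.752 CPM. The libraries labelled ICI were all higher, with a log2 difference of 2.09 (SE 0.40, edgeR adjusted p = 0.00111). Gm38070, which overlaps Il1r1 on the same strand, had 0 to 8 counts per library. Il1r1 is known as a receptor of stromal as well as immune cells. Of 7 fibroblast markers 6 were higher in the libraries labelled ICI, with a summed level of 58.8 to 187 CPM against 11.6 to 15.3 CPM. ICI replicate 1 held 187 CPM and the other libraries of that group 58.8 and 59 CPM, and the CD45 gate was meant to remove such cells. Of 7 endothelial markers 6 were higher as well, with 27.6 to 39.8 CPM against 20.3 to 27.2 CPM. Pecam1, the endothelial marker that was not called, held 12.6 to 22.9 CPM of that sum against 15.8 to 23 CPM. None of these markers was at 0 throughout a group, and their part in the Il1r1 difference was not tested.

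The shared accessory chain Il1rap (ENSMUSG00000022514) stood at 40.8, 41.5 and 49.7 CPM in the libraries labelled ICI and at 24.8, 35.1 and 20.3 CPM in those labelled isotype. The groups did not overlap. Il1rap rose from 26.7 ± 7.56 CPM to 44 ± 4.93 CPM (SD, n = 3 each), a log2 difference of 0.72 (SE 0.19, edgeR adjusted p = 0.00998).

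Il18rap (ENSMUSG00000026068), the accessory chain for interleukin-18, stood at 14.1, 17.8 and 22.1 CPM in the libraries labelled ICI and at 20.3, 30.1 and 13.6 CPM in those labelled isotype. The groups overlapped widely, with ICI replicate 3 the highest of its group and isotype replicate 3 the lowest of the 6. The log2 difference of -0.24 (SE 0.31) was not called (edgeR adjusted p = 0.515). In replicates 1 and 2 alone it was called lower, at -0.66 (edgeR adjusted p = 0.0193), and without isotype replicate 2 it was 0.08, so this gene's value rests on which libraries enter.

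The decoy receptor Il1r2 (ENSMUSG00000026073) stood at 130, 116 and 113 CPM in the libraries labelled ICI and at 177, 152 and 138 CPM in those labelled isotype. The highest library labelled ICI was just below the lowest labelled isotype. Il1r2 fell 1.3-fold, a log2 difference of -0.38 (SE 0.11, edgeR adjusted p = 0.00933). It lost its call with library totals (0.136) and upper-quartile factors (0.114). Il1r2 is known as a neutrophil and monocyte gene. Of 12 neutrophil markers 6 were higher, 1 lower and 5 not called in the libraries labelled ICI, with 634 to 739 CPM in sum against 486 to 628 CPM and no marker at 0 throughout a group. The neutrophil sum thus moved the other way from Il1r2, but the groups nearly touched, at 634 and 628 CPM. Ly6g, the marker that fell, was at most 1.28 CPM. The monocyte sum, 1631 to 1828 CPM against 4857 to 10001 CPM, moved the same way as Il1r2. Chil3 made up much of the isotype sum, and the monocyte markers Ace and Nr4a1 rose. The part of either list was not tested.

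**Figure D2:**
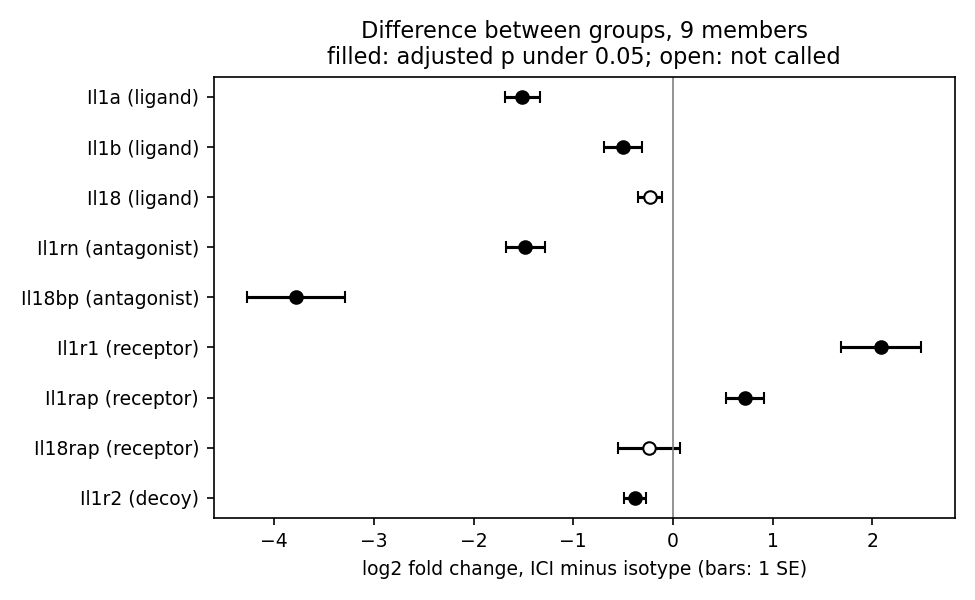
Log2 fold change of the 9 genes, libraries labelled ICI minus libraries labelled isotype, with bars of 1 SE from edgeR; filled points had an adjusted p under 0.05. Il18bp lies farthest to the left at -3.78 and Il1r1 farthest to the right at 2.09; with library totals or upper-quartile factors Il1b and Il1r2 kept a negative value but were not called.

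To compare levels between genes, CPM was divided by the length of each gene's exons in kilobases. In the libraries labelled isotype Il1b came first at 558 CPM per kilobase. Il18bp (115), Il1rn (106), Il1a (96.4) and Il1r2 (81.5) followed, each overlapping its neighbour in that order. Il18 (18.6) came next, then Il18rap (3.16) and Il1rap (2.35), which overlapped, and Il1r1 was last at 0.099. In the libraries labelled ICI Il1b was again first, at 395 CPM per kilobase. It was followed by Il1r2 (62.7), then by Il1rn (38.1) and Il1a (33.9), which overlapped, and by Il18 (15.9). Il18bp (8.31) and Il1rap (3.87) came next and overlapped, ahead of Il18rap (2.66) and Il1r1 (0.438). Per kilobase, Il18bp thus lay above Il18 in the libraries labelled isotype and below it in those labelled ICI. Among 14232 genes ranked by mean level per kilobase, Il1b had rank 77 in the isotype group and 96 in the ICI group, whereas Il18bp had rank 475 and 4707. With the length of the longest coding transcript, chosen as an alternative after the data were seen, Il1rn took the place after Il1b in both groups. In the ICI group it overlapped Il1r2 there, at 85.3 and 84.3 CPM per kilobase.

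Ratios within a library do not depend on the scaling between libraries. For 4 such ratios of counts per kilobase, the exact two-sided permutation p over libraries was 0.1, which is the smallest that 3 against 3 can give and stayed 0.1 after adjustment over the 4. The ratio of Il1rn to its competitors Il1a plus Il1b was 0.0813, 0.0952 and 0.0917 in the libraries labelled ICI, against 0.162, 0.166 and 0.157 in the isotype group. The antagonist was thus 1.81-fold scarcer per summed Il1a and Il1b RNA in the libraries labelled ICI, and within each group the ratio varied little. Il1b was the larger part of that sum and fell 1.42-fold. Against Il1a alone the antagonist was not scarcer to that degree, because Il1a fell 2.84-fold and Il1rn 2.79-fold. The ratio of Il18bp to Il18 was 0.434, 0.807 and 0.284 against 6.65, 6.71 and 5.21. Per kilobase, Il18bp RNA was below Il18 RNA in every library labelled ICI and several-fold above it in every library labelled isotype. The difference was 13.3-fold. In plain counts this ratio was 1.27, 2.37 and 0.833 against 19.5, 19.7 and 15.3. Which RNA was the more abundant in the ICI group thus rests on the lengths used. Both genes also overlap a gene on the opposite strand, so their levels are uncertain.

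The ratio of the decoy Il1r2 to the signalling receptor Il1r1 was 114, 154 and 182 in the libraries labelled ICI, against 642, 2296 and 612 in the isotype group. Per kilobase, decoy RNA exceeded Il1r1 RNA at least 114-fold in all 6 libraries, and in plain counts at least 34.3-fold. The excess was 6.55-fold smaller in the ICI group. The highest value comes from isotype replicate 2, where Il1r1 had 5 counts, and without that library the log2 difference went from -2.71 to -2.09. The ratio of Il1rap to Il1r1 was 6.01, 9.28 and 13.5 against 15.1, 89.2 and 15.1. Its log2 difference was -1.59, and -0.73 without isotype replicate 2 and -2.30 in replicates 1 and 2 alone, so its size rests on that library. None of the 4 ratios overlapped between the groups, beside 73.8% of tested genes whose groups did not overlap in CPM. Il1r1 is the denominator of both ratios in this paragraph, so the 4 are not independent.

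**Figure D3:**
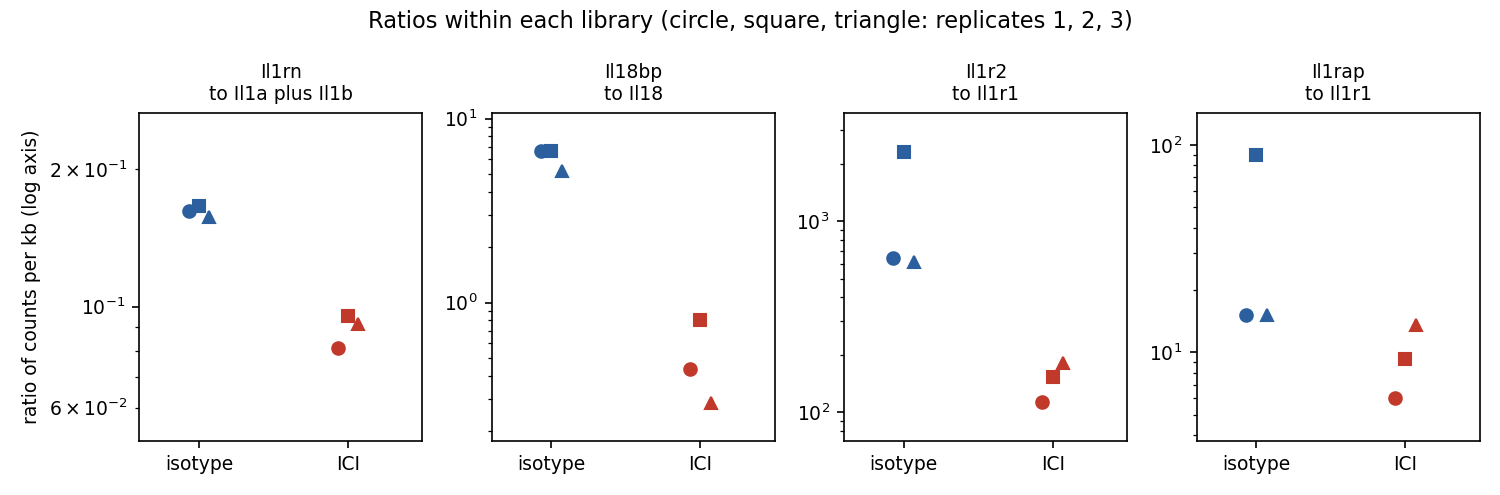
Ratios of counts per kilobase within each library for 4 pairs, on log axes, with symbols for replicates 1 to 3. The 3 libraries labelled ICI lie below the 3 labelled isotype in every panel, and isotype replicate 2 stands apart in both panels with Il1r1. In CPM, the groups did not overlap for 73.8% of tested genes.

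The members Il1r2, Il1r1 and Il18rap lie in a cluster of receptor genes on chromosome 1, beside Il1rl2, Il1rl1 and Il18r1. In chromosomal order Il1r2 was lower, Il1r1 higher, Il1rl2 lower, Il1rl1 higher, Il18r1 higher and Il18rap not called in the libraries labelled ICI. Neighbours therefore differed in direction. Il1rl1, the interleukin-33 receptor, stood at 51.2, 33.2 and 49.9 CPM in the libraries labelled ICI and at 0.22, 0.529 and 0.821 CPM in those labelled isotype. It was 83.8-fold higher (log2 6.39, SE 0.33, edgeR adjusted p = 1.96e-06), far more than any of the 9 members moved. Il1rl1 is a gene of group 2 innate lymphoid cells and mast cells, among others. Of the 7 other innate lymphoid markers 3 were higher, Gata3 was not called and Il13, Il5 and Il17rb were not tested, with Il13 at 0 in all 6 libraries. Their sum without Il1rl1 was 22.6 to 27.9 CPM against 4.67 to 7.49 CPM. Of 8 mast cell and basophil markers 5 were higher, with 27.3 to 69.1 CPM against 13.7 to 25.9 CPM. Kit, which was not called, held 14.9 to 24 CPM of that sum against 13.4 to 22.3 CPM. The sort kept only cells negative for CD90.2, and the part of either list in the Il1rl1 difference was not tested.

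Il18r1, which binds interleukin-18, had 32, 31 and 47 counts in the libraries labelled ICI, against 6, 12 and 6 counts in the isotype group. It was 4.9-fold higher in the libraries labelled ICI (log2 2.29, SE 0.41, edgeR adjusted p = 0.000748), and the groups did not overlap. The ratio of the accessory chain Il18rap to Il18r1, per kilobase, was 7.51, 10.3 and 7.97 in the libraries labelled ICI, against 65.6, 40.6 and 47.3 in the isotype group. RNA of the accessory chain thus exceeded that of the binding chain in all 6 libraries, and more so in the isotype group.

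**Figure D4:**
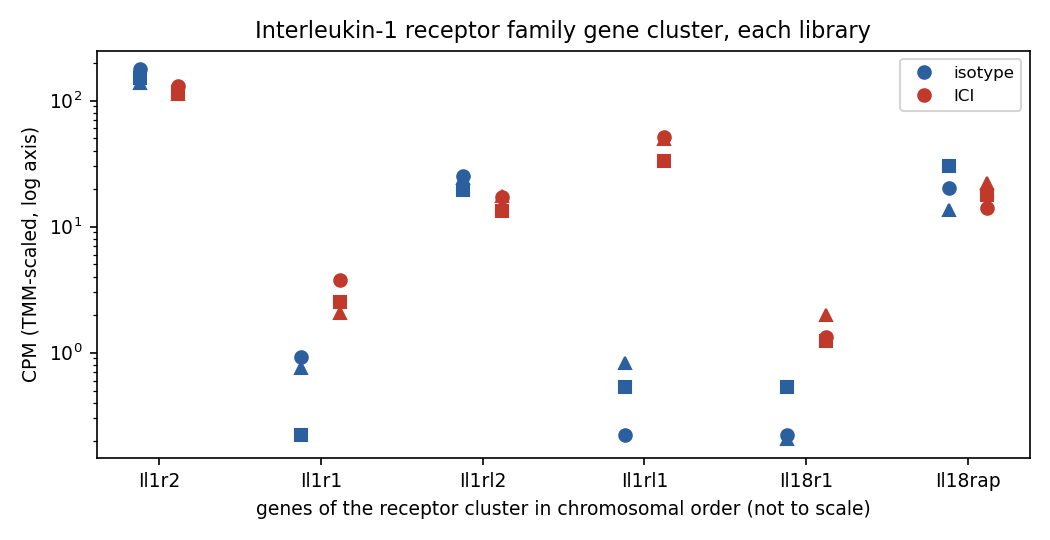
TMM-scaled CPM of 6 neighbouring receptor genes in each library, in chromosomal order on the horizontal axis and on a log vertical axis. Il1rl1 shows the widest gap between the groups, Il1r1 and Il18r1 are near or below 4 CPM throughout, and Il18rap overlaps.

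Other genes of the interleukin-1 family were few in these cells. Of 12 listed ligands and receptors 6 passed the filter, and 2 of them were higher (Il1rl1 and Il18r1), 2 lower and 2 not called, and the median log2 difference was 0.13. The share called (66.7%) was near that of all tested genes (68.9%). The genes that fell were Il1rl2, the interleukin-36 receptor (log2 -0.53, edgeR adjusted p = 0.00685), and Il1f9, which encodes its ligand interleukin-36γ (log2 -0.60, edgeR adjusted p = 0.0127). Neither was called with library totals (0.0708 and 0.0725), nor Il1f9 with upper-quartile factors (0.055). Il33, the ligand of Il1rl1, was at 0.919, 0.715 and 0.463 CPM against 0.183, 0.308 and 0.786 CPM and was not called (edgeR adjusted p = 0.276). It was called higher without isotype replicate 3 (0.0399) and in replicates 1 and 2 alone (0.0175). Sigirr, an inhibitory receptor of the family, was not called (log2 -0.40, edgeR adjusted p = 0.144).

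Downstream of the receptors, the adaptor Myd88 and its kinases relay the signal to NF-kB. Of 19 genes of this relay, all tested, 4 were higher, 8 lower and 7 not called, and the median log2 difference was -0.11. The share called was 63.2%, against 68.9% of all tested genes. Myd88 stood at 230, 229 and 188 CPM in the libraries labelled ICI and at 318, 362 and 284 CPM in those labelled isotype, a log2 difference of -0.57 (SE 0.12, edgeR adjusted p = 0.0014). The ubiquitin-conjugating pair Ube2v1 and Ube2n, which builds the chains that activate the pathway, fell by 0.81 and 0.68 on the log2 scale. The 4 genes that rose were the ubiquitin ligases Peli3 (10.1-fold, from under 1 CPM) and Peli2 (1.86-fold) and, named after their values were seen, Tab2 (1.4-fold) and the kinase Ikbkb (1.3-fold). With library totals or upper-quartile factors 6 genes of the relay were higher and 6 lower.

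Of 18 genes for the maturation and release of these cytokines 16 were tested, of which 4 were higher, 9 lower and 3 not called, and the median log2 difference was -0.32. The share called was 81.2%, against 68.9% of all tested genes. Casp1, which encodes caspase-1, stood at 87.6, 115 and 74.5 CPM in the libraries labelled ICI and at 163, 163 and 159 CPM in those labelled isotype. It fell 1.75-fold (log2 -0.81, SE 0.14, edgeR adjusted p = 0.000858), and no library labelled ICI reached the isotype range. Pycard, the adaptor that joins inflammasome sensors to caspase-1, stood at 49.5, 53.2 and 45.3 CPM against 266, 245 and 189 CPM. Pycard fell 4.73-fold (edgeR adjusted p = 6.98e-07), the channel gene Panx1 2.62-fold and Gsdmd, which forms the release pore, 2.22-fold. The protease gene Prtn3 was 16.8-fold lower, from at most 7.27 CPM, 26.9-fold lower without ICI replicate 3 and 27.7-fold lower in replicates 1 and 2 alone. The 4 genes that rose, of which the values were seen before they were named, were the ATP receptor P2rx7 (2.24-fold), the sensor Nlrc4 (1.61-fold), Gsdme (1.38-fold) and Casp4 (1.36-fold). The Casp4 call was lost without isotype replicate 3 (edgeR adjusted p = 0.0655). The sensor Nlrp3 was not called (log2 0.15, edgeR adjusted p = 0.213), but was called higher with library totals (0.00741) and upper-quartile factors (0.0128). Nlrp1b and Ninj1, which ruptures the membrane of dying cells, were not called either, although Ninj1 was called higher without ICI replicate 2 (edgeR adjusted p = 0.00661), with library totals (0.0219) and with upper-quartile factors (0.0248).

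Of 22 genes known to be induced by interleukin-1, 19 were tested, of which 10 were higher, 6 lower and 3 not called, and the median log2 difference was 0.30. The share called was 84.2%, against 68.9% of all tested genes, which had a median of 0.03, and nothing is read from the count about interleukin-1 targets as a class. Both directions held large changes. Nfkbiz, a nuclear NF-kB cofactor, rose 6.71-fold (1474, 1460 and 1332 CPM against 215, 200 and 221 CPM, edgeR adjusted p = 1.82e-08). Cebpd, a transcription factor, rose 6.27-fold, the chemokine Cxcl2 2.54-fold and the NF-kB inhibitor Nfkbia 1.91-fold. Named after their values were seen, Ptgs2, the inducible cyclooxygenase, fell 6.31-fold (146, 154 and 96.7 CPM against 881, 927 and 698 CPM) and the acute-phase gene Saa3 12.8-fold (20.3-fold in replicates 1 and 2 alone). The 3 genes not called were Icam1, Lcn2 and Csf3. Lcn2 was called lower without isotype replicate 3 (edgeR adjusted p = 0.00156), in replicates 1 and 2 alone (0.00347) and by DESeq2 (0.0222), and Csf3 higher without ICI replicate 2 (0.0141), with library totals (0.0401) and with upper-quartile factors (0.0393). These genes also answer to other signals. Of 15 immediate-early genes 13 rose and 1 fell in the libraries labelled ICI, with a summed level of 21100 to 27091 CPM against 9733 to 9949 CPM, and their part in this list was not tested.

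Of 10 genes of the natural killer and T cell response to interleukin-18, 9 were tested, of which 6 were higher, 2 lower and 1 not called, and the median log2 difference was 1.24. The share called was 88.9%, against 68.9% of all tested genes (35% higher), and with 9 genes nothing is read from it about the list. Ifng, the cytokine that interleukin-18 is best known for inducing, was low at 1.29, 1.31 and 1.52 CPM in the libraries labelled ICI and at 0.404, 0.529 and 0.786 CPM in those labelled isotype. It was 2.36-fold higher (log2 1.24, SE 0.32, edgeR adjusted p = 0.00632), without overlap. The transcription factor Stat4 rose 6.45-fold, the chemokine Xcl1 4.25-fold and the perforin gene Prf1 2.76-fold. Il12rb1, a chain of the interleukin-12 receptor, went the other way, at 2.17, 4.05 and 2.4 CPM against 150, 163 and 120 CPM, 50-fold lower (edgeR adjusted p = 7.95e-07). Il12rb2, the other gene that fell and named after its value was seen, was 2.6-fold lower and not called without ICI replicate 2 (edgeR adjusted p = 0.0675). The granzyme gene Gzmb was not called (0.098). It was called higher without ICI replicate 1 (edgeR adjusted p = 0.00483), with library totals (0.034), with upper-quartile factors (0.0361), with the replicate number as a block (0.0321) and by DESeq2 (0.0396). Of 8 natural killer markers, which include Prf1, 7 were higher and only Klrk1 lower. Their sum was 100 to 142 CPM against 232 to 234 CPM, with Klrk1 alone at 192 to 201 CPM in the isotype group. Of 10 T cell markers 3 were higher, 1 lower, 2 not called and 4 not tested, with 12.1 to 22.2 CPM against 2.47 to 4.92 CPM. Without Cd4 the T cell sums overlapped, at 3.02 to 4.84 CPM against 2.16 to 3.76 CPM, and the gate was meant to remove T cells. The part of either list was not tested.

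**Figure D5:**
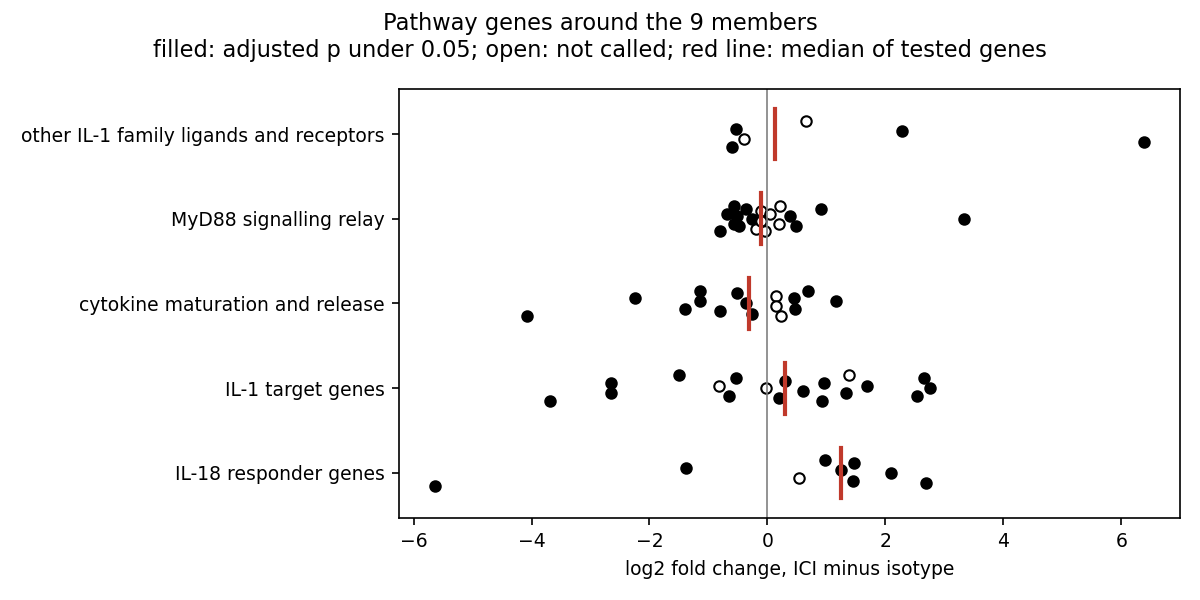
Log2 fold change, libraries labelled ICI minus libraries labelled isotype, of the tested genes in 5 lists around the members; filled points had an edgeR adjusted p under 0.05, open points were not called, and red lines are medians. Of the tested genes 9 of 16 for maturation were lower, 6 of 9 IL-18 responders were higher and IL-1 targets spread on both sides, beside 35% higher and 33.9% lower over all tested genes; with library totals or upper-quartile factors the maturation genes split evenly, 6 higher and 6 lower.

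The genes most like each member were found by Pearson correlation of log2 CPM over the 6 libraries among 8443 genes (8444 for Il1r1) with a mean of at least 10 CPM. Il18bp was followed most closely by Suv39h1 (0.9996), Fcgr4 (0.9995) and Pdia3 (0.9991), whose log2 differences were -0.77, -2.88 and -0.91. Il1a was followed by Atp2a2 (0.9994), Atad3a (0.9993) and Mrps5 (0.9986), and Il1rn by Ddx27 (0.9994), Ube2e1 (0.9991) and Tsnax (0.9988). The number of genes that reached 0.98 was 638 with Il18bp, 478 with Il1a and 417 with Il1rn. The other members had 1 to 6, among them Il1r1, Il1rap and Il1r2, whose groups did not overlap either. For Il1b the most similar was Ankrd17 (0.9909), for Il18 Trit1 (0.9974) and for Il18rap Tollip (0.9872). For Il1r1 it was Ldah (0.9919), for Il1r2 Cox19 (0.9851) and for Il1rap Rai1 (0.9899). All these points share 2 groups of 3 libraries, and the part of the group difference in the correlations was not tested.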

How the data were processed

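The deposited file is a table of raw, unnormalized counts for 57010 Ensembl genes in 6 libraries, whose columns were matched to samples through the library names in the labels. Per the submitters' processing notes, STAR 2.7.10a, Salmon 1.10.1 and GRCm39 were used, with roles not stated; the sources used here do not give the annotation release. Per the labels' protocols, libraries were non-directional and made with a low-input SMART-seq kit, so overlapping genes cannot be told apart. Symbols matched 91.3% of identifiers.

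Counts entered edgeR 4.0.16 (quasi-likelihood, robust, TMM, filterByExpr with a minimum of 10) in R 4.3.3, without a block, and 14575 genes were tested. The SE was taken from the log2 fold change and the F statistic. The same steps were run on simulated counts in which few genes changed, equally up and down. In the data 68.9% of tested genes were called, so that run does not check the scaling between libraries. Exon lengths came from GENCODE M21 (GRCm38), an older build, and promoter windows from RefSeq. Within-library ratios were compared by exact two-sided permutation.

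The 9 members are always named. Of each pathway list, the 4 called genes with the smallest p are named, with Il18r1, Myd88, Casp1 and Ifng, and for each member the 3 genes of highest correlation were taken. The members and lists were chosen with earlier results of these data known. Alternatives were DESeq2 1.42.0, limma-voom 3.58.1, RLE and upper-quartile factors, library totals, 2 filters, a fit that is not robust, a replicate block, each library left out, replicates 1 and 2 alone and, chosen after seeing the data, edgeR's earlier quasi-likelihood fit.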

Additional observations from a re-analysis of the deposited data

How the results depend on the processing

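Counts of called genes (all genes, the 9 members and 5 pathway lists) and 4 ratios gave 18 results, which had 274 values under 17 other settings. Of these 265 stayed within 1.5 times the reported count or within the replicate spread and 9 moved. These limits are wide, so the count is no measure of stability. Members called lower going from 5 to 4 did not count as moved. Nor did the log2 difference of Il1rap to Il1r1 going from -1.59 to -0.73. The 4 ratio differences kept their sign. With the replicate block they equal the reported values by construction, as do the ratios of single genes with plain counts. The ratio of Il1rn to Il1a plus Il1b, which sums genes of unlike length, was -0.86 with plain counts too, as rounded. Among single members, only Il18rap, which was not called, changed sign (-0.24 to 0.08, without isotype replicate 2). Members called higher were 1 with the strict filter, which left Il1r1 untested, and members called lower were 3 with library totals and 3 with upper-quartile factors. For the other interleukin-1 family genes, 1 was higher with the strict filter, and 0 were lower with library totals and 1 with upper-quartile factors. For the interleukin-18 responder genes, 1 was lower with no filter and 1 with the replicate block, and leaving out each library gave 1 to 2. Apart from the filters, which change the genes tested, the cause was not tested.

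Same-numbered libraries deviated together weakly (correlations 0.0345, 0.0619 and 0.128), so the numbers were not taken to pair libraries. They do share Xist, which was high only in replicate 3 of both groups (2786 and 1844 counts). Libraries of unlike number were not compared in this way. With the replicate block 5079 genes were higher and 4912 lower, against 5102 and 4938, no member changed its call, Il12rb2 reached an adjusted p of 0.05 and was not called, and Gzmb was called (0.0321). Il1a, Il1rn, Il1r1, Il1rap and Il18bp were called in every setting that tested them, with log2 fold changes of -1.71 to -1.30, -1.68 to -1.28, 1.73 to 2.41, 0.46 to 0.96 and -4.38 to -3.45. Where a group was left with 2 libraries, it was tested with the spread pooled over both groups. Low counts limit Il1r1 (5 to 91 per library), Il18r1 (6 to 47), Il33 (5 to 23), Csf3 (4 to 35) and Ifng (11 to 36).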

Other observations

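Markers of further cell types differed between the groups, and their part in the differences of the interleukin genes was not tested. All 6 B cell markers were higher in the libraries labelled ICI, with a summed level of 197 to 648 CPM against 4.4 to 9.57 CPM. Of 8 conventional dendritic cell markers 7 were higher and 1 lower, with 352 to 482 CPM against 80.3 to 134 CPM. Of 7 cardiomyocyte markers 6 were higher, with 29.1 to 39.4 CPM against 5.07 to 12.2 CPM. Clec9a, a marker of cross-presenting dendritic cells and named after its value was seen, was the dendritic marker that fell, with a log2 fold change of -1.37 (edgeR adjusted p = 0.0005). Of the neutrophil markers, Ly6g was at most 1.28 CPM in all 6 libraries, while S100a9 was 0.70 higher on the log2 scale in the libraries labelled ICI.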
